A study of Mus musculus with 8 samples.

Results

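The genes examined here are 36 mouse genes whose products copy DNA in S phase, and their mRNA was measured in 8 lung tumors. They were chosen by symbol from a list of known replication factors by a rule that uses no measured value, although earlier results of these data were known when the list was made, and all 36 were found among the 48709 genes of the count table. The tumors grew in mice of the *K* model, of mixed strain background, in which Cre recombinase starts the tumors. According to the study, all tumors were started in the lung with the lentiviral vector LentiCRISPRv2Cre, given through the trachea, which brings Cre recombinase, Cas9 and a guide RNA into whichever lung cells it infects. The 4 *K-Ctrl* tumors received a guide against *GFP*, which has no target in these mice, and the 4 *K-Setd2KO* tumors a guide against *Setd2*, the enzyme that places the third methyl group on lysine 36 of histone H3. All 8 tumors therefore share the *K* background, Cre and Cas9. The study describes the *K-Setd2KO* tumors as adenomas of low grade, set against controls of the same histological stage, while the labels say lung adenocarcinoma. The age of the mice, the time after infection and the number of mice are not given in the labels, and the extraction text speaks of cell lines where the design text speaks of frozen tumors. Where the labels do not say that tumors came from separate mice, p-values measure only the spread between these samples. The comparison asks how the mRNA of the replication machinery differed between the genotypes, tumor by tumor.

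DNA replication begins in G1 phase, when the origin recognition complex, Cdc6 and Cdt1 load the ring-shaped MCM2-7 helicase onto origins, a step that geminin (*Gmnn*) blocks outside G1. At the start of S phase Cdc45 and the GINS complex turn the ring into an active helicase, polymerase alpha and primase lay down primers, and polymerases delta and epsilon extend them on the PCNA sliding clamp. Many of these genes are classical targets of E2F transcription factors, which the retinoblastoma protein family holds in check in resting cells. In a bulk tumor, fewer cycling cells and less mRNA per cycling cell cannot be told apart.

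Promoters of the 36 genes were searched first for E2F letters, because this element is what the family is best known to share and was not used to choose the genes. RefSeq promoters (300 bases each, reaching from upstream of a start site to just past it, GRCm38.p6) were held for 30 of the 36 genes, and *Gins1*, *Gins2*, *Gins4*, *Mcm4*, *Gmnn* and *Pole* had no entry. The octamers TTTGGCGC, TTTCCCGC, TTTGCCGC and TTTCGCGC, read on both strands, occurred in 13 of 30 replication promoters (43.3%) and in 704 of 27025 promoters of all genes (2.60%). The 13 genes were *Cdc6*, *Cdt1*, *Gins3*, *Lig1*, *Mcm3*, *Mcm5*, *Mcm6*, *Mcm7*, *Orc1*, *Pola1*, *Pold1*, *Rfc3* and *Uhrf1*. The letters CCAAT were in 21 of 30 (against 41.1% of all promoters), GGGCGG in 21 of 30 (against 38.2%) and TTTGAA, the letters of a cell cycle homology element, in 4 of 30 (against 20.2%). A match is a description of these letters only. Stretches of 5 promoters are shown, with matched octamers in capitals, because they hold the clearest examples (*Mcm6* with 3 overlapping or separate matches, *Mcm5* with 2 overlapping ones, and 1 each in *Cdc6* and *Pola1*) beside *Pcna*, in whose window none of the octamers was found.
Cdc6, chr11:98907961-98908100, plus strand, from 190 to 51 bases before the start: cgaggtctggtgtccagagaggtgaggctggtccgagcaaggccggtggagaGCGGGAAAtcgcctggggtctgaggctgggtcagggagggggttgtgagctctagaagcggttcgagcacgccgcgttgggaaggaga
Mcm5, chr8:75109309-75109449, plus strand, from 200 to 60 bases before the start: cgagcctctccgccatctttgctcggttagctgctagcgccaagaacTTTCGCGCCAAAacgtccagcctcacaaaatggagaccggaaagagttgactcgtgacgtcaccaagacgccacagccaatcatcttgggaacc
Mcm6, chr1:128359716-128359855, minus strand, from 150 to 11 bases before the start: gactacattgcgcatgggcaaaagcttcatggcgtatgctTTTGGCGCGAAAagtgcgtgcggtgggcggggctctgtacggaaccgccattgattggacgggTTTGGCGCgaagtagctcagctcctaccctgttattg
Pola1, chrX:93632206-93632345, minus strand, from 190 to 51 bases before the start: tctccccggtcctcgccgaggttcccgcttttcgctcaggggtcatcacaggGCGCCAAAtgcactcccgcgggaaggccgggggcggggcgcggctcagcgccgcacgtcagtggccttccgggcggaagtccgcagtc
Pcna, chr2:132253191-132253330, minus strand, from 150 to 11 bases before the start: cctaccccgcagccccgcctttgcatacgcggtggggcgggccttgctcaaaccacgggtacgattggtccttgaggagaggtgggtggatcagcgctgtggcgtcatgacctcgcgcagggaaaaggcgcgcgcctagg

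The libraries held 5806599 to 21290402 counts, and *K-Setd2KO* replicate 4 was the shallowest. The targeted gene was examined first. *Setd2* reached 153, 138, 132 and 138 CPM (counts scaled to library size with TMM factors) in *K-Ctrl* replicates 1 to 4 and 145, 121, 124 and 153 CPM in *K-Setd2KO* replicates 1 to 4. Its log2 fold change was -0.05 (SE 0.115, adjusted p = 0.824), so the mRNA level does not check the labels, and a guide RNA need not lower the mRNA of its target. Markers of alveolar type 2 cells summed to 51143 to 68472 CPM in *K-Ctrl* and 55672 to 82673 CPM in *K-Setd2KO*, and epithelial markers to 1909 to 2920 CPM and 2610 to 3205 CPM. All 8 pan-leukocyte markers were lower in *K-Setd2KO* on average, 6 of them past the test, with summed levels of 1171 to 2116 CPM against 613 to 823 CPM and no overlap between the groups. Summed markers of T cells (55.7 to 142 CPM against 8.67 to 45.0 CPM), macrophages, endothelial cells (447 to 1551 CPM against 169 to 441 CPM) and ciliated cells (40.2 to 124 CPM against 11.1 to 27.4 CPM) were also lower in *K-Setd2KO* without overlap, and those of fibroblasts, smooth muscle, erythroid, alveolar type 1 and club cells had lower ranges that overlapped. Neutrophil markers, with 2 of 6 lower on average, summed to 23.4 to 32.9 CPM in *K-Ctrl* and 14.5 to 61.6 CPM in *K-Setd2KO*. B cell markers, with 5 of 6 lower, summed to 12.2 to 80.9 CPM and 15.0 to 30.5 CPM. The part of these other cells in the results was not tested.

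A set of 8 replication genes fell in *K-Setd2KO* tumors and 0 rose. Of the 36 genes, 35 had enough counts to be tested, 30 of these had a lower mean and 5 (*Orc2*, *Orc6*, *Gins4*, *Rfc5* and *Rpa2*) a higher one, and the median log2 fold change was -0.48 against 0.03 over all 14929 genes tested. Of all 14929 genes, 7060 had a negative log2 fold change. With edgeR's quasi-likelihood test and Benjamini-Hochberg adjustment over all genes, 8 members fell (22.9%, where 7.74% of all genes tested fell) and 0 rose (4.97% of all genes rose), and 17 had an unadjusted p under 0.05, all of them with a lower mean. Among all 14929 genes, 4464 were under that unadjusted p, in either direction. DESeq2 and limma voom also called 0 members higher. The 8 that fell were *Rrm2*, *Pcna*, *Gmnn*, *Lig1*, *Pola1*, *Mcm3*, *Mcm4* and *Rrm1*. In 15 members the lowest *K-Ctrl* tumor lay above the highest *K-Setd2KO* tumor, and in 0 the reverse (42.9% of those tested, where 11.2% of all genes did so in this direction and 20.3% in either). For each of these 15 the exact two-sided permutation p was 0.0286, the smallest that 70 assignments of 4 and 4 tumors can give. Complete separation of the groups fixes that value, so it adds nothing to the count. The count of 8 fell to 3 without *K-Ctrl* replicate 1, 2 or 3 or without *K-Setd2KO* replicate 1, and to 5 without *K-Setd2KO* replicate 3, while *Pcna* and *Rrm2* passed in all 8 of these fits. With the pan-leukocyte level as a term, 0 members passed and 2 of all genes, with a member median of -0.53. An unadjusted p under 0.05 was reached there by 4 of 35 members and by 1527 of all 14929 genes. Because that level does not overlap between the groups, its part and that of genotype cannot be told apart. Sex, read from sex-linked transcripts, was female in 1 of 4 *K-Ctrl* and 3 of 4 *K-Setd2KO* tumors, and with sex as a term 3 members passed (*Pcna*, *Rrm2* and *Mcm3*).

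**Figure D1:**
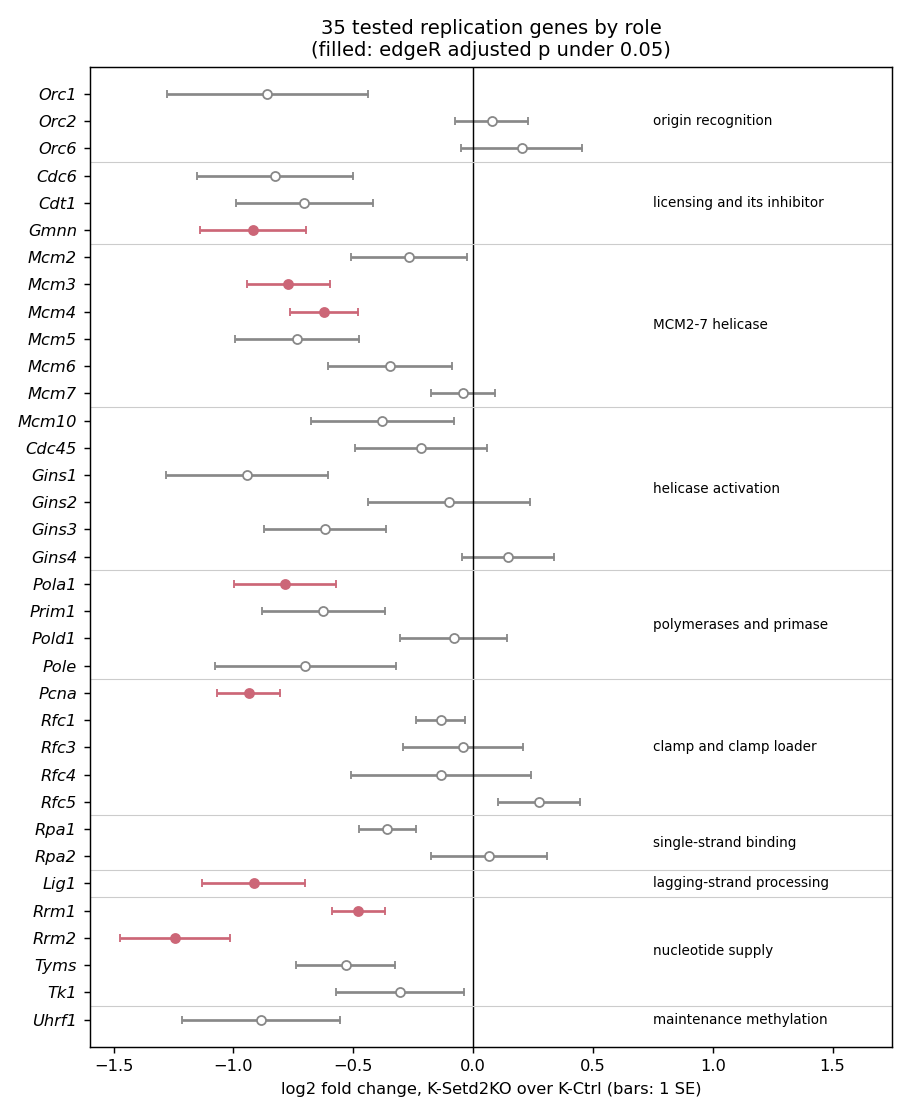
Log2 fold change of each of the 35 tested replication genes (x axis, *K-Setd2KO* over *K-Ctrl*, bars 1 SE) with genes on the y axis in order of role and the 8 genes past the test filled. Points run from -1.24 for *Rrm2* to 0.27 for *Rfc5*, and the filled points all lie left of 0.

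None of the 3 origin recognition genes passed the test, and their log2 fold changes ran from -0.86 to 0.20. *Orc2*, a core subunit of the origin recognition complex, was at 25.2, 30.2, 28.6 and 28.8 CPM in *K-Ctrl* and 24.8, 26.01, 35.3 and 33.2 CPM in *K-Setd2KO*, a log2 fold change of 0.08 (SE 0.153, adjusted p = 0.772). The 2 groups overlapped, and *K-Setd2KO* replicates 3 and 4 were above every control. Exons of another gene on the opposite strand cover 29.8% of its exon bases, and whether counting used strand is not given in the sources used here. *Orc6*, the smallest subunit, was between 15.4 and 31.5 CPM in *K-Setd2KO* and between 14.3 and 19.6 CPM in *K-Ctrl*, with replicate 3 of *K-Setd2KO* far above the rest. *Orc1*, an ATPase subunit, was scarce (121 counts over 8 tumors) and its groups did not overlap, at 1.11 to 2.03 CPM against 0.462 to 1.02 CPM, but its log2 fold change of -0.86 did not pass the test (SE 0.420, adjusted p = 0.206).

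All 3 licensing genes had lower means in *K-Setd2KO*, and the inhibitor among them passed the test. *Gmnn*, which encodes geminin, the inhibitor that traps Cdt1, stood at 13.7, 13.4, 16.3 and 12.9 CPM in *K-Ctrl* and 7.29, 5.97, 10.4 and 6.16 CPM in *K-Setd2KO*. Every *K-Setd2KO* tumor was below every control, with replicate 3 the highest of the 4. The group mean fell from 14.1 ± 1.52 to 7.46 ± 2.06 CPM (SD, n = 4 each), a log2 fold change of -0.92 (SE 0.222, adjusted p = 0.0292). *Cdc6*, the loader that recruits MCM2-7, ranged from 4.31 to 6.16 CPM in controls and 1.61 to 3.94 CPM in *K-Setd2KO* (log2 fold change -0.83, SE 0.325, adjusted p = 0.125). *Cdt1*, its partner, ranged from 6.34 to 8.49 CPM and 2.62 to 5.89 CPM (log2 fold change -0.70, SE 0.287, adjusted p = 0.137). Both sets of groups were without overlap, and the lowest tumor was replicate 2 for *Cdc6* and replicate 1 for *Cdt1*.

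The 6 subunits of the MCM2-7 ring, which act together as 1 ring, had log2 fold changes from -0.77 to -0.04, and 2 of the 6 fell. Differences between the subunits were not tested. Per kilobase of exon they lay within 3.22 to 9.17 CPM per kb in controls, with *Mcm2* lowest and *Mcm4* highest. *Mcm3* was at 32.9, 35.3, 32.9 and 32.6 CPM in *K-Ctrl* and 20.4, 16.8, 15.5 and 25.8 CPM in *K-Setd2KO*. The controls stayed within a narrow band, all *K-Setd2KO* tumors were below it, and replicate 4 came closest. Its mean fell from 33.4 ± 1.26 to 19.6 ± 4.64 CPM (SD, n = 4 each), a log2 fold change of -0.77 (SE 0.173, adjusted p = 0.0230). *Mcm4* was at 30.2, 33.0, 34.9 and 33.6 CPM against 21.6, 17.1, 23.7 and 23.3 CPM. The groups were again apart, with replicate 2 of *K-Setd2KO* lowest, and the log2 fold change was -0.62 (SE 0.143, adjusted p = 0.0249). *Mcm7*, the subunit with the highest CPM of the ring, was at 37.3, 31.6, 39.7 and 39.3 CPM against 30.9, 35.1, 39.6 and 38.2 CPM. Its groups overlapped almost completely, with a log2 fold change of -0.04 (SE 0.132, adjusted p = 0.860), and exons on either strand of other genes cover 12.6% of its exon bases. *Mcm5* had a log2 fold change of -0.73 (SE 0.258, adjusted p = 0.0919) and passed with DESeq2 (adjusted p = 0.0380), with limma voom (0.0444) and without *K-Setd2KO* replicate 4 (0.0283). *Mcm6* spanned 12.9 to 32.0 CPM in *K-Setd2KO* around a control range of 25.7 to 30.4 CPM, so that its lowest and highest values of all 8 tumors were both in *K-Setd2KO*. *Mcm2* had a log2 fold change of -0.27 (SE 0.241, adjusted p = 0.494). It lies on chromosome 6, whose genes had median log2 levels 0.33, 0.32 and 0.38 above the control mean in *K-Setd2KO* replicates 1, 3 and 4 and -0.03 in replicate 2, and the part of that shift in its level was not tested.

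**Figure D2:**
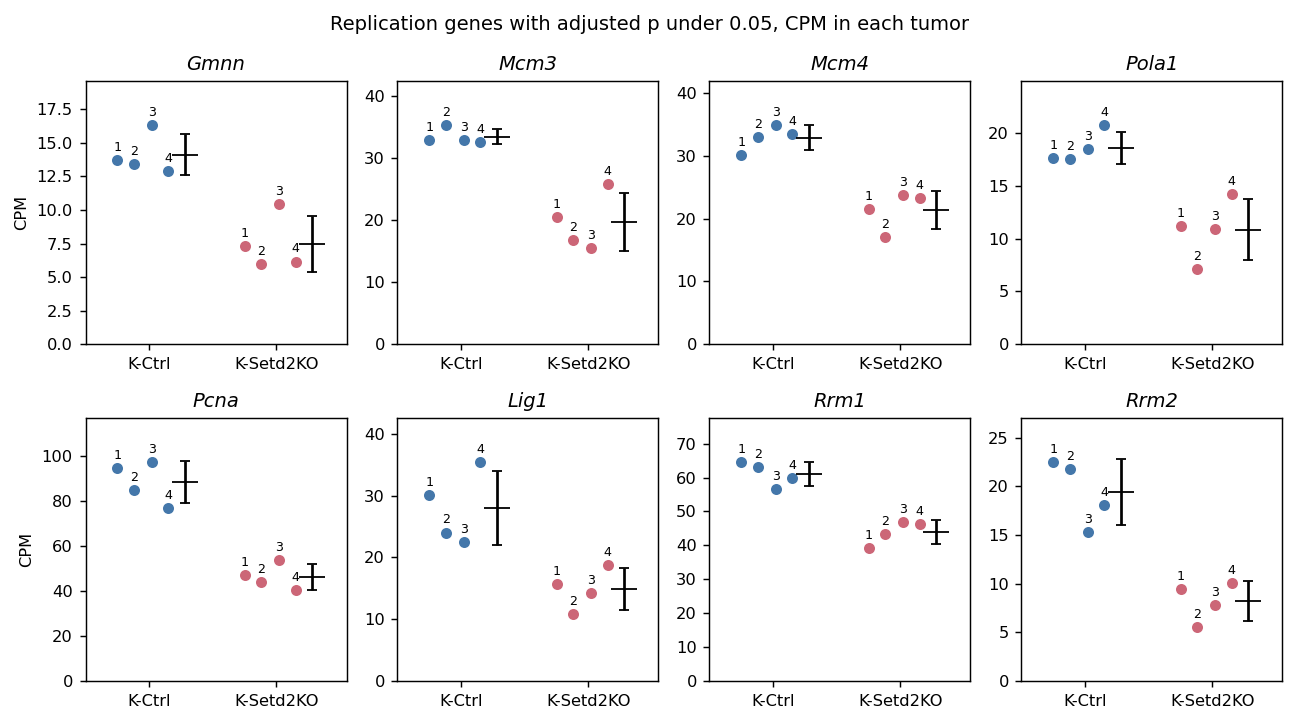
CPM (y axis, linear, from 0) of the 8 replication genes past the test in each tumor, with the replicate number beside each point, *K-Ctrl* in blue and *K-Setd2KO* in red, and the group mean with 1 SD in black. In each of the 8 panels the lowest control lies above the highest *K-Setd2KO* tumor.

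None of the 6 genes that activate the helicase passed the test, although 5 of 6 had a lower mean. *Gins4*, a GINS subunit and the most abundant of the 6, was at 22.4, 16.7, 22.9 and 18.7 CPM in *K-Ctrl* and 19.4, 17.3, 25.2 and 27.7 CPM in *K-Setd2KO*. The groups overlapped, with a log2 fold change of 0.14 (SE 0.193, adjusted p = 0.655). Its GINS partners *Gins1* (log2 fold change -0.94, SE 0.337, adjusted p = 0.0966) and *Gins3* (-0.62, SE 0.254, adjusted p = 0.141) did not overlap between the groups and were lower in *K-Setd2KO*. *Gins2* had a log2 fold change of -0.10 (SE 0.339, adjusted p = 0.868), and opposite-strand exons cover 67.3% of its exon bases. *Cdc45*, the helicase cofactor, and *Mcm10*, which helps the paired helicases separate, had log2 fold changes of -0.22 (SE 0.277) and -0.38 (SE 0.298).

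All 4 polymerase and primase genes had lower means in *K-Setd2KO*, and 1 of them, *Pola1*, passed the test. *Pola1*, the catalytic subunit of polymerase alpha, was at 17.7, 17.6, 18.5 and 20.8 CPM in *K-Ctrl* and 11.2, 7.11, 10.9 and 14.2 CPM in *K-Setd2KO*. No *K-Setd2KO* tumor reached a control, and replicate 2 was lowest. The log2 fold change was -0.78 (SE 0.214, adjusted p = 0.0430), and with sex as a term, for a gene on the X chromosome, it was -0.75 (adjusted p = 0.114). *Pola1* was called in 2 of the 8 fits without 1 tumor (edgeR adjusted p 0.0347 to 0.103) and in 7 of all 17 alternatives. *Prim1*, the catalytic subunit of primase, was lower in 3 of 4 *K-Setd2KO* tumors than in every control (log2 fold change -0.62, SE 0.257, adjusted p = 0.140). *Pole*, the leading-strand polymerase, was at 5.91, 6.64, 5.45 and 5.80 CPM in controls and 3.65, 1.38, 5.26 and 4.45 CPM in *K-Setd2KO*. All 4 *K-Setd2KO* values were below the controls but replicate 3 only narrowly so, and replicate 2 rested on 18 counts (95% exact Poisson interval 0.816 to 2.18 CPM, counting error only). Its log2 fold change of -0.70 had an SE of 0.378 (adjusted p = 0.248). *Pold1*, the lagging-strand polymerase, had a log2 fold change of -0.08 (SE 0.225, adjusted p = 0.841).

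The sliding clamp gene fell, and none of the 4 loader genes passed the test. *Pcna*, the clamp that tethers polymerases to DNA, was the most abundant replication gene in controls both in CPM and per kilobase (36.9 CPM per kb). It was at 94.8, 85.0, 97.5 and 77.0 CPM in *K-Ctrl* and 47.3, 43.9, 53.5 and 40.2 CPM in *K-Setd2KO*. The 4 *K-Setd2KO* tumors were close together and all far below the lowest control. The mean fell from 88.6 ± 9.38 to 46.2 ± 5.65 CPM (SD, n = 4 each), a ratio of 0.522 and a log2 fold change of -0.94 (SE 0.131, adjusted p = 0.00643), the smallest adjusted p of the members. A processed pseudogene, *Pcna-ps2*, is 99.2% identical to *Pcna* over 781 bases, and its level went the other way, with 3.53 ± 2.57 CPM in controls and 9.34 ± 2.76 CPM in *K-Setd2KO* (SD, n = 4) and a log2 fold change of 1.42 (SE 0.464, adjusted p = 0.0746). With the counts of both summed, an alternative chosen after seeing the data, the log2 fold change was -0.73 (SE 0.112, adjusted p = 0.00811).

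The clamp loader is the RFC complex, and its large subunit hardly varied. *Rfc1* was at 63.7, 57.8, 60.7 and 57.2 CPM in *K-Ctrl* and 53.9, 54.9, 58.3 and 50.7 CPM in *K-Setd2KO*. Replicates 1, 2 and 4 of *K-Setd2KO* were below every control, replicate 3 was not, and the log2 fold change was -0.14 (SE 0.101, adjusted p = 0.405). *Rfc4*, a small subunit, was at 4.31, 5.29, 4.80 and 4.998 CPM against 4.01, 4.74, 7.01 and 1.71 CPM. Its *K-Setd2KO* range of 1.95 log2 units was the widest of the members and enclosed all controls, and the lowest tumor, replicate 4, held 10 counts (95% exact Poisson interval 0.821 to 3.15 CPM). *Rfc3* and *Rfc5*, also small subunits, had log2 fold changes of -0.04 (SE 0.251) and 0.27 (SE 0.171, adjusted p = 0.317), the latter the highest of the 35. *Rpa1*, the large subunit of the RPA complex that coats single-stranded DNA, was at 54.9, 47.5, 47.7 and 47.0 CPM in *K-Ctrl* and 41.3, 36.7, 41.5 and 34.1 CPM in *K-Setd2KO*. Its groups did not overlap, with a log2 fold change of -0.36 (SE 0.119, adjusted p = 0.0779, and 0.0317 with DESeq2). *Rpa2*, the middle subunit, had a log2 fold change of 0.07 (SE 0.241, adjusted p = 0.882).

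On the lagging strand *Lig1*, the ligase that seals Okazaki fragments, fell. It was at 30.04, 24.0, 22.5 and 35.5 CPM in *K-Ctrl* and 15.8, 10.8, 14.2 and 18.8 CPM in *K-Setd2KO*. The groups did not overlap although the controls were themselves spread out, and the log2 fold change was -0.92 (SE 0.216, adjusted p = 0.0268). *Fen1*, the flap nuclease that trims those fragments, did not pass the filter on low counts, with 86 counts over 8 tumors and 0.342 to 1.29 CPM. It entered the fit with no filter and the fits without *K-Ctrl* replicate 2 or *K-Setd2KO* replicate 4, and was called in none of these. Opposite-strand exons of *Gm10143* and *Tmem258* cover 84.2% of its exon bases, and the part of that overlap in its low count was not tested.

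Nucleotide supply held the largest fall. *Rrm2*, the subunit of ribonucleotide reductase made in S phase, was at 22.5, 21.8, 15.3 and 18.0 CPM in *K-Ctrl* and 9.40, 5.58, 7.75 and 10.1 CPM in *K-Setd2KO*. Every *K-Setd2KO* tumor was below every control, and replicate 2 was the lowest. Its mean fell from 19.4 ± 3.38 to 8.21 ± 2.01 CPM (SD, n = 4 each), a ratio of 0.423 and a log2 fold change of -1.24 (SE 0.229, adjusted p = 0.0124). *Rrm1*, the large subunit, which is present more evenly through the cycle, was at 64.7, 63.0, 56.7 and 60.0 CPM against 39.1, 43.2, 46.8 and 46.4 CPM. Both groups were tight and apart, and its log2 fold change of -0.48 was smaller in size but precisely measured (SE 0.110, adjusted p = 0.0247). *Tyms*, which makes thymidylate, and *Tk1*, which makes it from salvaged thymidine, had log2 fold changes of -0.53 (SE 0.207, adjusted p = 0.122) and -0.31 (SE 0.268, adjusted p = 0.479).

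*Uhrf1*, which brings the maintenance methyltransferase Dnmt1 to newly copied DNA, was at 16.3, 17.2, 12.6 and 17.3 CPM in *K-Ctrl* and 9.40, 4.05, 7.38 and 13.9 CPM in *K-Setd2KO*. Replicate 4 of *K-Setd2KO* reached into the control range and replicate 2 was far below it. The log2 fold change was -0.88 (SE 0.330, adjusted p = 0.109), and it passed narrowly with DESeq2 (adjusted p = 0.0498) and without *K-Setd2KO* replicate 4 (adjusted p = 0.0464).

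On the log2 scale, replication gene levels were spread more widely among the *K-Setd2KO* tumors than among the controls, a description with no test. In CPM the SD was smaller in *K-Setd2KO* for *Orc1*, *Gins1*, *Pcna*, *Rpa1*, *Lig1*, *Rrm2* and *Tyms*, and larger for the other tested members. The part of lower counts in the spread of log2 values was not tested. The SD of log2 CPM was larger in *K-Setd2KO* for 35 of 35 tested members, where 66.0% of all genes tested had the larger SD there. The median SD was 0.41 in *K-Setd2KO* and 0.19 in *K-Ctrl* for the members, and 0.35 and 0.26 for all genes tested. Leaving out 1 tumor at a time, an alternative chosen after seeing the data, gave 28 to 33 members, with 28 (59.3% of all genes) without the shallow *K-Setd2KO* replicate 4. The widest ranges in *K-Setd2KO* were those of *Rfc4* (1.95 log2 units), *Pole* (1.83) and *Uhrf1* (1.74), and the narrowest those of *Rfc1* (0.20), *Rrm1* (0.26) and *Rpa1* (0.28).

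**Figure D3:**
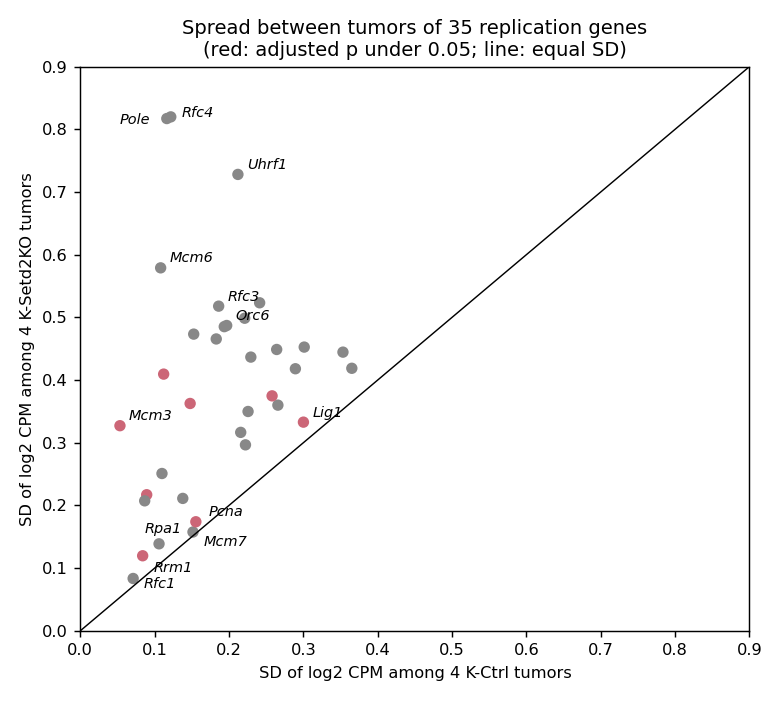
SD of log2 CPM among the 4 *K-Setd2KO* tumors (y axis) against the 4 *K-Ctrl* tumors (x axis) for the 35 tested replication genes, with the line of equal SD and the 8 genes past the test in red. All points lie above the line, *Rfc4*, *Pole* and *Uhrf1* farthest and *Rfc1*, *Mcm7* and *Pcna* close to it.

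The median level of the members was below the control mean in each of the 4 *K-Setd2KO* tumors. The median over members of log2 CPM minus the control mean was -0.64, -0.49, -0.32 and -0.38 in *K-Setd2KO* replicates 1 to 4. Over all genes tested it was -0.005, -0.008, 0.014 and 0.002. In these tumors 29, 23, 20 and 22 of the 35 members were below every control. Members above every control numbered 0, 2, 8 and 5. The share of all genes beyond every control was not counted for single tumors, so these counts have no background. Replicate 1 was the lowest *K-Setd2KO* tumor for 12 members and replicate 2 for 14, while replicate 3 was the highest for 20 and replicate 1 for 0. Which tumor was lowest or highest was not counted over all genes either, so these counts too have no background. The MCM2-7 genes had medians of -0.48, -0.97, -0.56 and -0.02, and the subunits went both ways in replicate 4. There *Mcm2* was at 0.32 and *Mcm6* at 0.20, while *Mcm3* at -0.37 and *Mcm4* at -0.50 were below every control. The helicase activators were also split in replicate 4, from -1.41 for *Gins1* to 0.47 for *Gins4*.

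Mitotic genes, which act after replication, differed widely in level among the 4 *K-Setd2KO* tumors. All 20 genes of a mitotic list had lower means in *K-Setd2KO* and the median log2 fold change was -0.89, but 2 passed the test (7.74% of all genes fell). With the pan-leukocyte level as a term the median of this list was -0.21, with 7 of 20 genes positive, 0 called and 0 at an unadjusted p under 0.05. *Mki67*, the standard marker of cycling cells, was at 96.4, 102, 90.2 and 96.8 CPM in *K-Ctrl* and 63.4, 26.1, 29.3 and 64.0 CPM in *K-Setd2KO* (log2 fold change -1.08, SE 0.295, adjusted p = 0.0449). *Bub1b*, a spindle checkpoint kinase, had a log2 fold change of -0.98 (SE 0.186, adjusted p = 0.0135). The median deviation of the list was -0.40, -1.68, -1.61 and -0.21 in *K-Setd2KO* replicates 1 to 4. Replicates 2 and 3 were both below replicates 1 and 4 for 20 of the 20 mitotic genes, a pattern noticed in these data. The same held for 7 of the 35 replication genes (*Mcm2*, *Mcm3*, *Mcm6*, *Pola1*, *Lig1*, *Rrm2* and *Uhrf1*) and for 22.3% of all genes tested. The other 28 replication genes, *Pcna*, *Gmnn*, *Mcm4* and *Rrm1* among them, did not have this order.

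**Figure D4:**
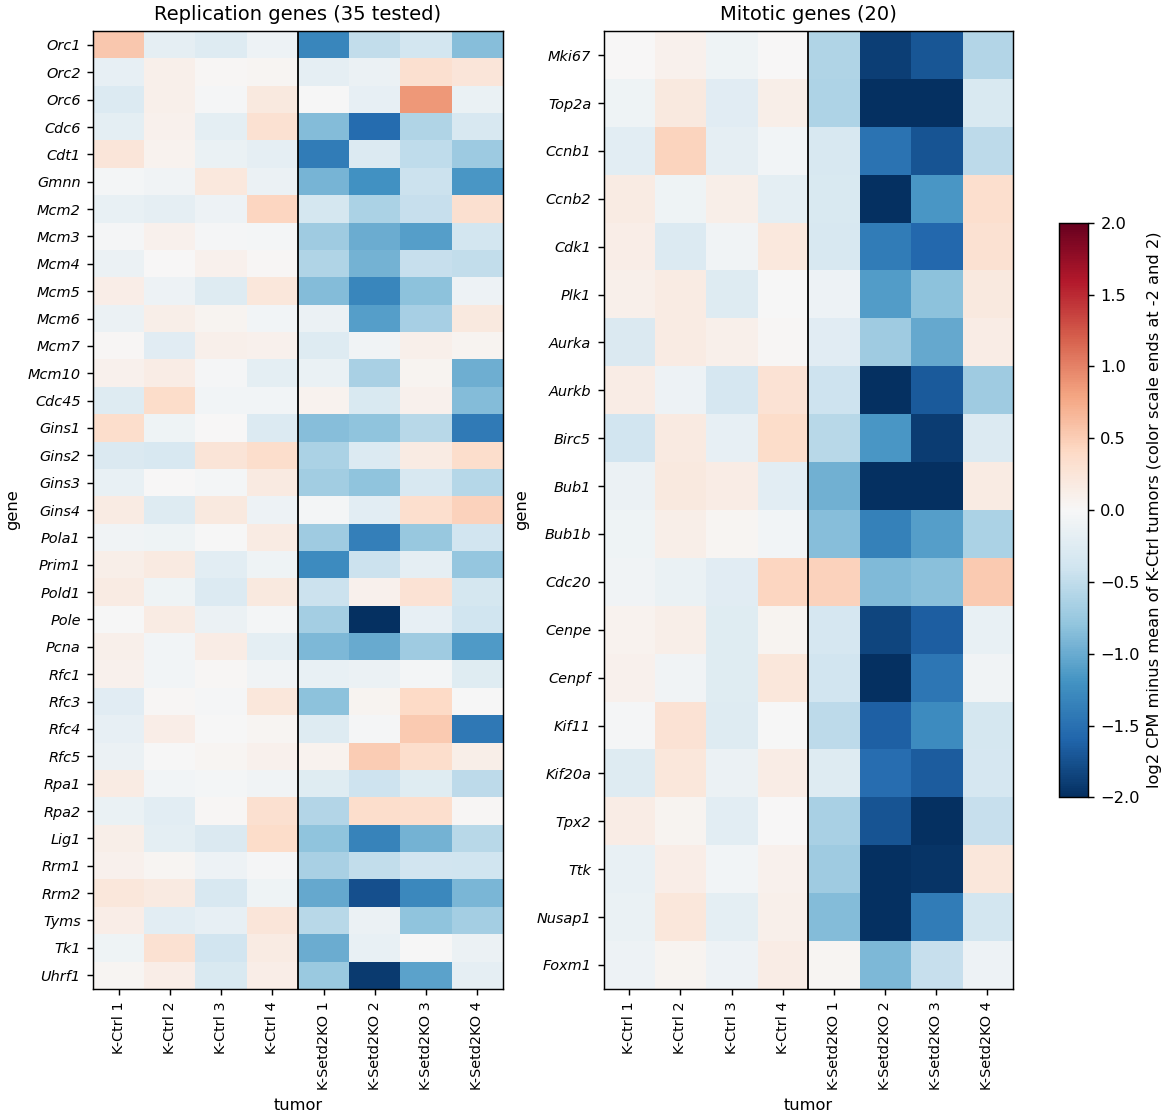
Log2 CPM minus the mean of the *K-Ctrl* tumors (color, blue lower and red higher, ends at -2 and 2) for 35 replication genes and 20 mitotic genes (rows) in the 8 tumors (columns). Mitotic genes are deep blue in *K-Setd2KO* replicates 2 and 3 and paler in 1 and 4, while many replication genes are blue in all 4.

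**Figure D5:**
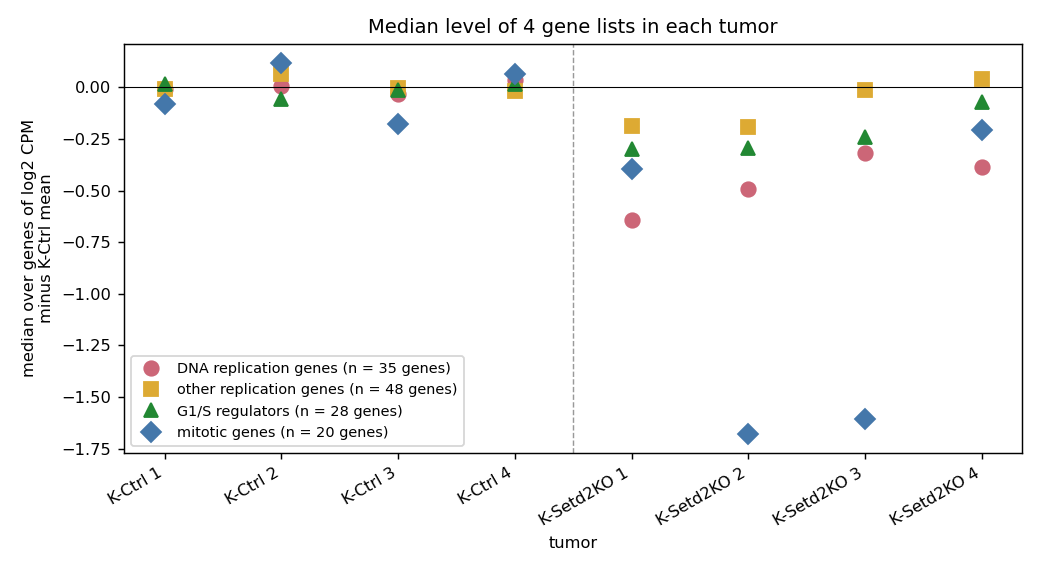
Median log2 CPM minus the *K-Ctrl* mean (y axis) of 4 gene lists in each tumor (x axis). Mitotic genes drop to -1.68 and -1.61 in *K-Setd2KO* replicates 2 and 3, whereas replication genes stay between -0.64 and -0.32 in all 4 *K-Setd2KO* tumors.

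Other genes of the process were taken from 3 lists written with earlier results known. Of 48 other replication genes, 3 fell and 1 rose past the test, shares below the 7.74% and 4.97% of all genes tested, with a median log2 fold change of -0.05. *Clspn*, which encodes the fork protein claspin, was at 11.5, 10.8, 6.92 and 12.2 CPM in *K-Ctrl* and 4.42, 2.14, 2.68 and 5.99 CPM in *K-Setd2KO* (log2 fold change -1.46, SE 0.355, adjusted p = 0.0295). *Asf1b*, a histone chaperone of S phase, had a log2 fold change of -1.10 (SE 0.262, adjusted p = 0.0284). *Samhd1*, which breaks down deoxynucleotides and is abundant in myeloid cells, averaged 261 ± 37.2 CPM in controls and 110 ± 16.3 CPM in *K-Setd2KO* (SD, n = 4), a log2 fold change of -1.25 (SE 0.154, adjusted p = 0.00560). Macrophage markers summed to 494 to 1504 CPM in *K-Ctrl* and 170 to 335 CPM in *K-Setd2KO*, all 8 of them lower and 5 past the test, and their part in the *Samhd1* result was not tested. *Pole3*, a small accessory subunit of polymerase epsilon, rose, with means of 47.6 ± 7.20 CPM in controls and 69.7 ± 5.88 CPM in *K-Setd2KO* (SD, n = 4) and a log2 fold change of 0.55 (SE 0.137, adjusted p = 0.0328), while the catalytic subunit *Pole* had the negative value given above.

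Of 28 regulators of the step from G1 to S phase, 4 fell and 1 rose (7.74% and 4.97% of all genes did), with a median log2 fold change of -0.21. *Ccne1*, the cyclin E that drives S phase entry, was at 3.45, 3.70, 3.19 and 4.91 CPM in *K-Ctrl* and 0.976, 0.918, 0.738 and 1.198 CPM in *K-Setd2KO* (log2 fold change -1.995, SE 0.325, adjusted p = 0.00876). *E2f1*, an activating E2F, was at 9.97, 6.47, 10.3 and 8.92 CPM against 3.39, 2.98, 1.85 and 5.48 CPM (log2 fold change -1.41, SE 0.339, adjusted p = 0.0290). Neither gene overlapped between the groups. *Cdkn1b*, which encodes the CDK inhibitor p27, rose, with means of 116 ± 19.1 CPM in controls and 179 ± 39.0 CPM in *K-Setd2KO* (SD, n = 4) and a log2 fold change of 0.62 (SE 0.177, adjusted p = 0.0488). In the fits without 1 tumor, a regulator of this list was called higher only without *K-Setd2KO* replicate 2, and 0 were with library size alone, a minimum of 10 counts per tumor or the pan-leukocyte term. The retinoblastoma family members *Rb1* and *Rbl1*, which restrain E2F, also fell, with log2 fold changes of -0.85 (SE 0.149, adjusted p = 0.0111) and -0.73 (SE 0.204, adjusted p = 0.0469). An activator and 2 restrainers of E2F were thus lower in the same tumors. Of the 6 members that fell and have a promoter entry, 3 (*Mcm3*, *Lig1* and *Pola1*) hold an E2F octamer in the window searched. Of all 30 members with an entry, 13 (43.3%) hold one, and a link between the octamer and the fall was not tested.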

How the data were processed

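The authors deposited a table of raw counts per gene for 8 tumors, not normalized. The submitters' processing notes name STAR 2.5.2b, featureCounts 1.5.0-p1 and the build GRCm38.p4 without giving their roles, and the libraries were made with a stranded poly(A) kit. The annotation and the strand setting of the counting are not given in the sources used here. Of 48709 genes, 48349 (99.26%) matched GENCODE M21 once versions were removed, 20284 had 0 counts in all tumors, and no row lacked a gene name. The limit that 3 counts allow was 0.141 to 0.517 CPM over the 8 libraries, for counting error only. No libraries of a group were copies of each other (lowest chi-square per degree of freedom 33.2).

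Groups came from the labels. Counts were compared in R 4.3.3 with edgeR 4.0.16 (filterByExpr, TMM, robust quasi-likelihood fit, genotype alone), with adjustment over 14929 genes and a call at an adjusted p of 0.05. The SE was derived from each log2 fold change and its F value, CPM uses TMM-scaled library sizes, and log2 CPM a prior count of 2. The study compared the genotypes with DESeq2, run here (1.42.0) as an alternative beside limma voom (3.58.1), other scalings and filters, leaving out each tumor, a replicate block, sex and pan-leukocyte terms. The procedure was tested on simulated data. Copies of members were searched with BLAST 2.17.0+ among M21 transcripts, and exon overlaps were computed from M21.

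The members, roles, marker lists and lists of other genes were chosen with earlier results of these data known. Values of every tumor are given for members that passed, for the highest in CPM of each role, and for the 3 widest and 3 narrowest ranges in *K-Setd2KO*. From the other lists the genes that passed are named, and *Setd2* and *Mki67* in any case, while genes and values beyond this rule were chosen after their values were seen. The promoter sequences are RefSeq's.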

Additional observations from a re-analysis of the deposited data

Results flagged for a closer look

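Each of the 35 tested members and *Setd2* was examined in each group of 4 tumors for 1 tumor far from the other 3. Of 72 groups, 5 held one, where chance gives about 3.6. *Fen1* was not examined. *Orc6* reached 31.5 CPM in *K-Setd2KO* replicate 3, with 15.4 to 17.1 CPM in the other 3. *Mcm2* reached 29.8 CPM in *K-Ctrl* replicate 4, with 19.5 to 20.6 CPM in the others. *Rpa1* reached 54.9 CPM and *Orc1* 2.03 CPM in *K-Ctrl* replicate 1, above 47.0 to 47.7 CPM and 1.11 to 1.25 CPM. *Mcm3* reached 35.3 CPM in *K-Ctrl* replicate 2, a small step above 32.6 to 32.9 CPM among otherwise very even controls.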

How the results depend on the processing

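Of 594 values of the members under the alternatives, 522 kept their direction and their side of the threshold, 44 of called members lost the call with the same direction, 7 of uncalled members gained one, and 21 in 10 members changed sign, none of them a called member. The number of members called lower was 8, and 11 with DESeq2, 9 with limma voom, 8 with upper-quartile factors, library size alone or a minimum of 10 counts per tumor, and 6 without a filter. It was 3 with sex as a term and 0 with the pan-leukocyte level as a term, and 3 to 9 when 1 tumor was left out. The number called higher was 0 in all of these. Without 1 tumor, 1 to 5 mitotic genes, 1 to 5 other replication genes and 2 to 4 G1/S regulators were called lower, and 0 or 1 of each of the last 2 lists higher. The same replicate numbers in both groups do not pair the tumors (correlations of same-numbered tumors -0.07, -0.03, 0.19 and -0.02), and with the replicate block 5 members were called lower and 0 G1/S regulators higher. All genes called numbered 1897, and 3194 with DESeq2, 1237 with sex, 2 with the pan-leukocyte term and 763 (without *K-Ctrl* replicate 3) to 2058 (without *K-Setd2KO* replicate 2) without 1 tumor. *Setd2* turned to 0.0162 with the pan-leukocyte term. With that term *Mcm6* was at 0.38, *Cdc45* at 0.12 and *Rpa2* at -0.61, the last also at -0.0179 with limma voom. With sex as a term *Mcm7* was at 0.0822, *Gins2* at 0.105, *Pold1* at 0.0652, *Rfc3* at 0.0813 and *Rfc4* at 0.00894. Leaving out 1 tumor gave -0.0118 to 0.159 for *Orc2*, -0.11 to 0.30 for *Orc6*, -0.112 to 0.0268 for *Mcm7*, -0.267 to 0.0672 for *Gins2*, -0.226 to 0.0304 for *Pold1*, -0.22 to 0.16 for *Rfc3*, -0.44 to 0.11 for *Rfc4* and -0.051 to 0.241 for *Rpa2*. The cause of these changes was not tested. *K-Setd2KO* replicate 4, with 5806599 counts, limits the scarce members, down to 4 counts for *Orc1*.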
